A study of Homo sapiens with 2 samples.

Results

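Cell barcodes in S phase, the part of the cell cycle in which DNA is copied, were set beside barcodes with almost no counts of proliferation genes in 1 long-read single-cell library. The groups were chosen on measured counts. Among 2462 barcodes, 1996 held at least 2000 counts and were classified. S was the summed count of 10 replication genes (PCNA, MCM2, MCM3, MCM5, MCM6, MCM7, GINS2, RRM2, CLSPN and HELLS), and M was the summed count of 6 mitotic genes (MKI67, TOP2A, CCNB1, CDC20, CENPF and UBE2C). A barcode with S of at least 5 and M of at most 2 was taken as S-phase, which gave 212 of 1996 barcodes (10.6%, 95% exact binomial interval 9.30% to 12.1%). A barcode with S of at most 1 and M of at most 1 was taken as low-cycling, which gave 628 barcodes (31.5%). The mitotic limit is there to keep barcodes late in the cycle out of the S-phase group. It also leaves out barcodes with high S, since the 878 barcodes with M of at least 3 had a median S of 6 and a highest S of 54. RRM2 had no entry of its own and was counted through an entry that joins it with C2orf48 and AC007240.1, whose names cover overlapping genes.

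The library came from a mixture of 3 human ovarian cancer lines, IGROV1, SK-OV-3 and COV504, detached with trypsin and pooled in equal parts, with no treatment named. The cDNA of a 10x droplet preparation was read on a PromethION nanopore instrument, and the study used it to benchmark Isosceles, a program that counts transcripts in long reads. Both groups come from the same pool and the same library, so neither has a biological replicate, and a group is a range cut from a count rather than a purified population. The same 2462 barcodes are also listed for a short-read Illumina library, whose expression values were not used here. With 1 library there is no test between conditions. Intervals below cover counting error only at the 95% level, and a gene is called different when its level differs by at least 1.5-fold.

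DNA replication starts at origins that are licensed in G1 by the ORC complex, CDC6 and the MCM2-7 helicase and fired when CDC45 and GINS join that helicase. Behind the helicase, the PCNA clamp, loaded by RFC, holds the polymerases on DNA, ribonucleotide reductase and thymidylate synthase supply the building blocks, and histone chaperones rebuild chromatin on the new strands. Many of these genes are transcribed by E2F factors once cyclin-dependent kinases inactivate RB1, whereas CDKN1A and related inhibitors hold cells in G1.

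The DNA words bound by E2F were searched in the 300 bases around each RefSeq gene start (GRCh38.p14, 250 bases before and 50 after). The words were TTTCCCGC, TTTGGCGC, TTTCGCGC and TTTGCCGC on either strand, and overlapping words were each counted. Of the 10 S genes, 9 had an entry and 8 of these 9 held a word (88.9%), against 1090 of 27305 genes by symbol (3.99%) and 0 of the 5 M genes with an entry. In the lists of related genes described below, a word was present in 10 of 20 matched G1/S regulators (50%), 4 of 19 nucleotide supply genes (21.1%), 3 of 37 G2/M genes (8.11%) and 2 of 25 arrest genes (8.0%). In the origin and fork, chromatin assembly and repair lists under 80% of the genes had an entry, so their share is not given. The stretches that follow are shown because they hold the words before the RefSeq starts of 3 S genes and of 2 genes outside the rule, TYMS and DUT, that were higher in S-phase barcodes. They read 5′ to 3′ on the gene's strand, with the words in capitals.
MCM6, chr2:135876444-135876600, minus strand: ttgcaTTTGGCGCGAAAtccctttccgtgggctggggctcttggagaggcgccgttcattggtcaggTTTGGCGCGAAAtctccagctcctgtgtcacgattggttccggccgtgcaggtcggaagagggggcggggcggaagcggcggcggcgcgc
HELLS, chr10:94545698-94545787, plus strand: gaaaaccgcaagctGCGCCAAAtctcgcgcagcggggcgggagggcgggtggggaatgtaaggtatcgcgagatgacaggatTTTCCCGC
GINS2, chr16:85688967-85688996, minus strand: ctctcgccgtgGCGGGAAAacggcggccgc
TYMS, chr18:657603-657632, plus strand: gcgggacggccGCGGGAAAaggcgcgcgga
DUT, start of the nuclear form, chr15:48332152-48332181, plus strand: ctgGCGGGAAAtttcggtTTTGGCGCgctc
MCM6 carries its pair of words as a repeat, each a TTTGGCGC overlapping a word on the other strand. HELLS has a word that ends at the base before its start. In DUT the nearer word ends 19 bases before the nuclear start, and the windows of the other 3 RefSeq starts of DUT, at positions 48331095, 48331424 and 48331429, held no word. GENCODE places exons of GINS2, TYMS and DUT over the printed stretches, so in these 3 genes the words lie inside an annotated exon. No word was found for ORC6, FEN1, TK1, RFC4, SMC2, UBE2T, MAD2L1 or KIF20B, and a match is a description of letters, not of binding.

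S-phase barcodes held 1441039 counts and low-cycling barcodes 3007357. The median depth was 6082.5 counts (2228 to 20019) in S-phase and 4407 (2019 to 15116) in low-cycling barcodes. Within FOLR1+CLDN3 barcodes, a line class defined below, the medians were 6122.5 and 4059. Because the rule reads absolute counts, depth enters group membership. S-phase barcodes made up 20 of 465 (4.30%) at 2000 to 4000 counts, 145 of 1057 (13.7%) at 4000 to 8000 and 47 of 474 (9.92%) above, and low-cycling barcodes 55.5%, 31.1% and 8.65%. Levels are therefore given as counts per 1000000 counts of the group's total (CPM), and the part of depth in the group sizes was not tested. Scrublet called 77 barcodes as doublets, of which 6 were S-phase and 8 low-cycling. Of 9 markers of blood, endothelial and fibroblast cells, PTPRC, CD3E, LYZ, CD79A, VWF, HBB and DCN were at 0 counts in both groups, PECAM1 had 3 and 3 counts, and COL1A1 15 and 211.

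**Figure D1:**
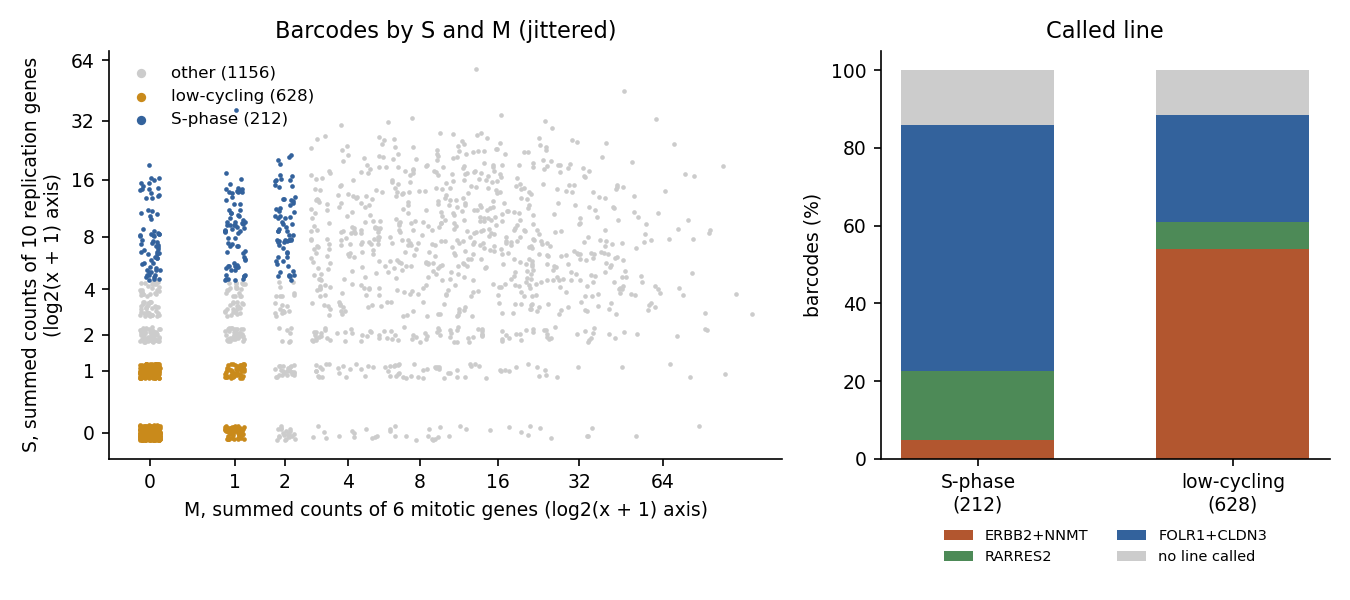
Left, each point is 1 barcode with at least 2000 counts, placed by M, the summed count of 6 mitotic genes (horizontal), and S, that of 10 replication genes (vertical), on log2(x + 1) axes. Right, the stacked bars give the percent of each group by called line, with FOLR1+CLDN3 at 63.2% of the 212 S-phase barcodes and ERBB2+NNMT at 54.0% of the 628 low-cycling ones.

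The groups differed in their mix of lines. Lines were called where at least 75% of the counts of 5 line genes fell on ERBB2 and NNMT, on RARRES2, or on FOLR1 and CLDN3, and they are named by those genes. FOLR1+CLDN3 barcodes made up 134 of the 212 S-phase barcodes (63.2%) but 173 of the 628 low-cycling ones (27.5%). ERBB2+NNMT barcodes made up 10 S-phase barcodes (4.72%) and 339 low-cycling ones (54.0%). RARRES2 barcodes made up 38 (17.9%) and 44 (7.01%), and the rest had no line call. Seen from the lines, 134 of 711 FOLR1+CLDN3 barcodes were S-phase (18.8%, 16% to 21.9%), as were 38 of 464 RARRES2 barcodes (8.19%, 5.86% to 11.1%) and 10 of 555 ERBB2+NNMT barcodes (1.80%, 0.867% to 3.29%). These 3 intervals do not overlap. Barcodes with high S and M of 3 or more are not in these shares. Low-cycling barcodes made up 24.3%, 9.48% and 61.1% of the same lines, and barcodes with M of at least 3 made up 36.1%, 75.6% and 24.7%. Among barcodes of 4000 to 8000 counts the S-phase shares were 23.9%, 13.7% and 2.15% and the low-cycling shares 19.5%, 5.19% and 64.3%, so that FOLR1+CLDN3 and RARRES2 barcodes then held more S-phase than low-cycling barcodes. Over all depths most RARRES2 barcodes were placed in neither group, and most ERBB2+NNMT barcodes were low-cycling.

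Because of this mix, a pooled ratio also reads line identity. AKR1C3, an aldo-keto reductase, stood at 0.18 times its low-cycling CPM in the pooled comparison and at 0.73 times within lines, and STARD3, a neighbour of ERBB2 on chromosome 17, at 0.17 and 0.71. ERBB2, a receptor tyrosine kinase gene, stood at 0.17 and 0.94, but its counts help call the lines, so its value within them is partly set by the calls. Ratios were therefore also combined over the 3 lines (Mantel-Haenszel ratio, called line-adjusted below), a choice made after the values were seen. Of 5259 genes with at least 100 counts over both groups, 531 were at least 1.5-fold higher in S-phase barcodes (10.1%) and 1147 lower (21.8%) in the pooled comparison. After line adjustment 376 of 4808 genes were higher (7.82%) and 233 lower (4.85%). Among genes in both comparisons, 166 were called higher in each, which is 35.5% of the 467 pooled calls and 44.1% of the 376 line-adjusted calls. For genes called lower the 170 shared calls were 16.6% of 1025 pooled and 73.0% of 233 line-adjusted calls. Within FOLR1+CLDN3 barcodes alone, 134 of 2082 genes were higher (6.44%) and 48 lower (2.31%). The median log2 ratio over all genes was -0.14 pooled and 0.04 line-adjusted.

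Of the S genes themselves, each was read in groups formed without it, so that its own count did not place a barcode. PCNA, the sliding clamp, had 257 counts in 180 S-phase barcodes and 133 in 670 low-cycling barcodes, or 208 and 40.8 CPM. Its line-adjusted ratio was 5.03 (3.76 to 6.73). The other helicase and fork genes stood at 3.52 for MCM2, 4.83 for MCM5, 4.92 for MCM7, 5.68 for MCM3 and 5.84 for MCM6. GINS2, part of the active helicase, reached 9.25 (5.62 to 15.2), RRM2, the regulated subunit of ribonucleotide reductase, 8.66 (5.08 to 14.8), and CLSPN, a checkpoint mediator at forks, 10.7 (5.17 to 22.0). HELLS, a chromatin remodeller, stood at 4.39. All 10 were higher in S-phase barcodes, also in FOLR1+CLDN3 barcodes alone, where they ran from 2.73 for MCM2 to 7.72 for GINS2. The marker genes thus go with the S-phase label when read apart from the rule, although the other 9 genes still chose the barcodes.

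At the lower limit of S for the S-phase group, barcodes just inside and just outside held similar levels. The origin and fork list stood at 1228 CPM (1099.8 to 1368) in the 41 barcodes with S of 5 and M of at most 2, just inside. It stood at 1252 CPM in the 51 barcodes with S of 4, just outside. On the low side the list stood at 633 CPM (589 to 679) in the 239 low-cycling barcodes with S of 1. It stood at 865 CPM (790 to 945) in the 108 barcodes with S of 2 and M of at most 1, and these intervals do not overlap. S-phase barcodes with M of 2 and barcodes with S of 5 or more and M of 3 held 2167 and 1914 CPM.

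Genes that load, fire and drive replication forks were higher in S-phase barcodes as a sum in all 3 lines. The list holds 39 genes outside the rule, of which 37 had an entry of their own. Summed over these 37, S-phase barcodes held 1838 CPM and low-cycling barcodes 537 CPM. The ratio was 3.42 pooled and 2.87 line-adjusted (2.64 to 3.11), with 3.38 in ERBB2+NNMT, 4.67 in RARRES2 and 2.54 in FOLR1+CLDN3 barcodes. Epithelial keratin and EPCAM counts, given at the end, differed between the groups inside the same lines. In ERBB2+NNMT barcodes, where S-phase held 108 counts of the list, 28 of 35 members with counts stood above 1 and 7 below, and neither of the 2 with at least 100 counts was called. All 37 genes stood above a ratio of 1 after line adjustment, and 10 of the 11 with at least 100 counts were called higher, against 7.82% of all genes. A gene can reach 100 counts through its S-phase level, so the sum over all members is the firmer value. The same holds for the nucleotide supply, G1/S, chromatin assembly, repair and G2/M counts below. Within FOLR1+CLDN3 barcodes alone, 3 of 4 fork genes with at least 100 counts were called higher, against 6.44% of all genes there. The same count was 3 of 9 for the nucleotide supply, 2 of 3 for the G1/S, 10 of 13 for the chromatin assembly, 0 of 2 for the repair and 0 of 4 for the G2/M genes described next.

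MCM4, the sixth helicase subunit and the one left out of the rule, had 186 counts in S-phase and 41 in low-cycling barcodes, or 129 and 13.6 CPM. Its line-adjusted ratio was 6.06 (3.97 to 9.27), with 9.33 in ERBB2+NNMT and 4.56 in FOLR1+CLDN3 barcodes, and RARRES2 barcodes had 33 counts against 0, at least 9.70-fold higher when 3 counts are set for 0. ORC6, a subunit of the origin recognition complex, had 107 and 20 counts, or 74.3 and 6.65 CPM, and a line-adjusted ratio of 9.07 (4.88 to 16.9). It was higher in each line, at 18.1, 13.7 and 6.85. CDC6, which loads the helicase on origins, had 91 and 9 counts and a line-adjusted ratio of 9.0 (4.49 to 18). FEN1, the nuclease that trims Okazaki fragments, had 112 and 32 counts and a line-adjusted ratio of 6.58 (3.94 to 11). The clamp loader subunit RFC4 stood at 4.92 (2.90 to 8.33). CDC45, named here for its role after its values were seen, had 44 counts against 2. The lowest members by the naming rule were RFC1, the large clamp loader subunit, at 1.54 (1.21 to 1.96), and RPA2, a subunit of the single-strand binding complex, at 1.36 (0.91 to 2.02), an interval that holds 1. The intervals of MCM4, ORC6, CDC6 and FEN1 overlap one another and lie above those of both.

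**Figure D2:**
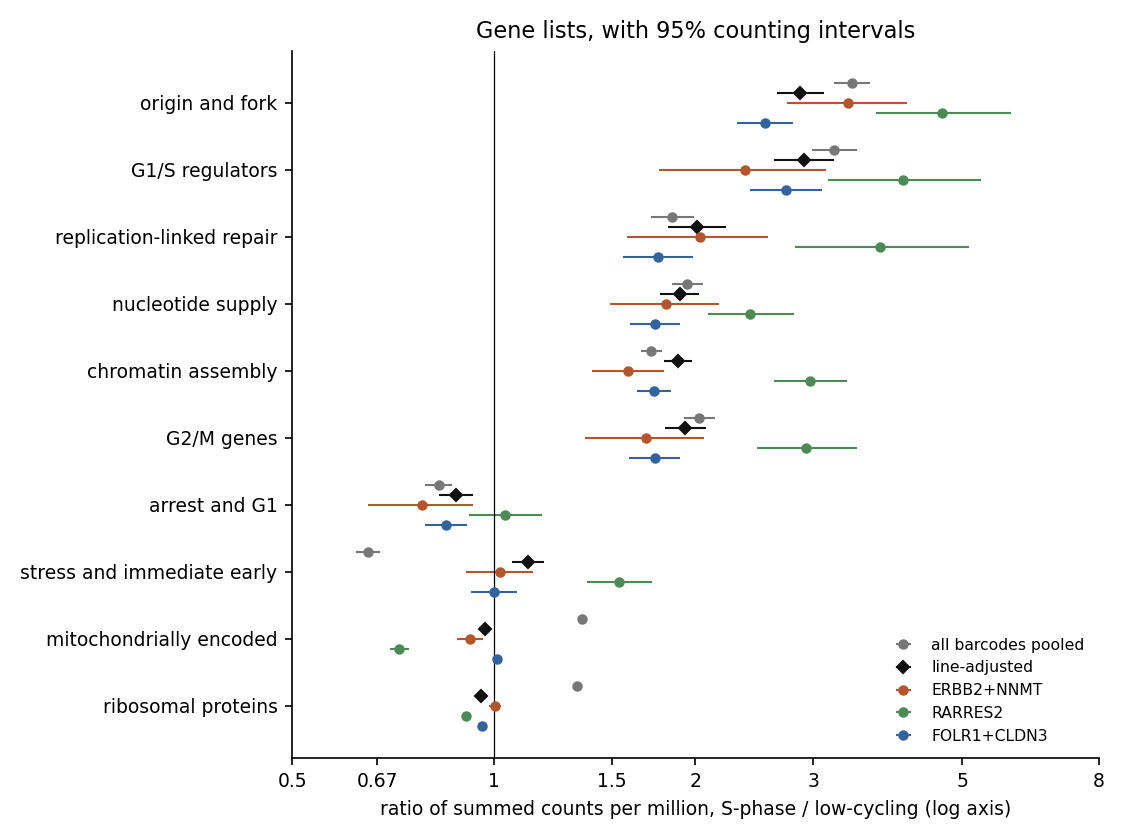
Ratio of summed CPM, S-phase over low-cycling (log axis), for each list, pooled (grey), line-adjusted (diamonds) and within each line, with 95% counting intervals. The origin and fork and G1/S lists lie highest, at 2.87 and 2.91 line-adjusted, and the arrest list lies at 0.88.

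Nucleotide supply genes were higher as a group but unevenly. The 21 members with an entry summed to 1930 CPM in S-phase and 992 CPM in low-cycling barcodes, a line-adjusted ratio of 1.89 (1.77 to 2.03) and 1.81, 2.42 and 1.74 in the ERBB2+NNMT, RARRES2 and FOLR1+CLDN3 lines. All 21 stood above 1 after line adjustment, and 10 of 17 with at least 100 counts were called higher, against 7.82% of all genes. TYMS, which makes thymidylate, had 93 and 31 counts and a line-adjusted ratio of 5.80 (3.26 to 10.3). TK1, the cytosolic thymidine kinase, had 236 and 97 counts, or 164 and 32.3 CPM, with ratios of 3.43, 2.60 and 8.55 in the 3 lines. RRM1, the large subunit of ribonucleotide reductase, stood at 3.23 (2.22 to 4.71). The lowest members by the naming rule were UMPS, an enzyme of pyrimidine synthesis, at 1.10 (0.70 to 1.75), and GMPS, an enzyme of purine synthesis, at 1.43 (1.07 to 1.91), which stood at 0.84 pooled. Members of the list thus differed widely. TYMS overlaps ENOSF1 on the other strand, so its reads may in part belong to that gene.

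Regulators of entry into S phase gave the largest list ratio beside the fork genes. The 24 members with an entry summed to 1174 and 364 CPM, a line-adjusted ratio of 2.91 (2.62 to 3.22), with 2.37, 4.08 and 2.73 in the lines. All 24 stood above 1, and all 5 with at least 100 counts after line adjustment were called higher, against 7.82% of all genes. That minimum can be passed through the S-phase level, so the sum is the firmer value here too. CKS1B, a cofactor of cyclin-dependent kinases and of the ligase that removes CDKN1B, had 430 and 234 counts and a ratio of 3.12 (2.53 to 3.84). CDCA7, an E2F target that acts with the remodeller HELLS, stood at 3.71 (2.59 to 5.31). GMNN, which blocks a second round of licensing, stood at 2.58 (1.80 to 3.70), and USP1, a deubiquitinase acting on PCNA, at 1.69 (1.37 to 2.09). Among genes named after their values were seen, DTL, which targets licensing factors for destruction at PCNA, had 94 counts in S-phase barcodes and 5 in low-cycling ones. E2F1 had 46 and 3 counts, and in FOLR1+CLDN3 barcodes 24 against 0. That is 7.11-fold higher when 3 counts are set for 0, with counting error left out.

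Chromatin assembly genes summed to 3948 and 2297 CPM. Of the 24 members 23 stood above 1 after line adjustment, and the summed line-adjusted ratio was 1.88 (1.80 to 1.98), with 1.59, 2.97 and 1.74 in the lines. Of 17 with at least 100 counts 13 were called higher, against 7.82% of all genes. ATAD2, a bromodomain ATPase and E2F coactivator, had 128 and 42 counts and a ratio of 7.44 (4.43 to 12.5), with 10.8, 6.39 and 6.98 in the lines. DNMT1, which copies DNA methylation onto new strands, stood at 3.72 (2.75 to 5.03), HMGB2, a DNA-bending protein, at 2.68 (1.96 to 3.65), and NASP, a chaperone of H3 and H4, at 2.47 (2.07 to 2.96). ASF1A, also an H3-H4 chaperone, was the exception by point value at 0.70 (0.43 to 1.16), from 30 and 119 counts. Its interval holds 1, and it stood at 1.15, 0.88 and 0.56 in the lines.

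Histone genes themselves did not move as a block. The 10 histone genes with at least 100 counts and a line-adjusted ratio were looked at after their values were seen. H2AFZ, the H2A.Z variant gene, had 1244 and 1376 counts, or 863 and 458 CPM, and a line-adjusted ratio of 2.01 (1.80 to 2.23). HIST1H4C, a replication-dependent H4 gene, stood at 0.97 pooled and at 1.82 line-adjusted (1.58 to 2.09), with 1.35, 6.57 and 1.51 in the lines. H3F3A and H3F3B, which encode the replacement histone H3.3, stood at 0.85 (0.79 to 0.92) and 0.77 (0.71 to 0.82). H2AFY, the macroH2A1 gene, stood at 1.33 (1.04 to 1.70) and H2AFV, a close relative of H2AFZ, at 1.29 (1.01 to 1.64). H2AFJ stood at 0.54 (0.40 to 0.73), HIST3H2A at 0.52 (0.36 to 0.75), HIST2H2AA4 at 0.47 (0.32 to 0.68) and H1F0, the linker histone known from resting and differentiated cells, at 0.38 (0.24 to 0.62). Of the 10 genes 4 thus lay above 1 and 6 below. Values of HIST2H2AA4 and HIST1H4C are uncertain because near-identical copies can share reads, and replication-dependent histone mRNAs lack the poly(A) tail that cDNA priming relies on.

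Repair genes that act at forks summed to 924 and 500.1 CPM over 24 members, a line-adjusted ratio of 2.01 (1.82 to 2.22). All 24 stood above 1, and 3 of the 7 with at least 100 counts were called higher, against 7.82% of all genes. UNG, which removes uracil from DNA, stood at 3.10 (1.89 to 5.08), BARD1, the partner of BRCA1, at 3.28 (1.97 to 5.48), and PARP1, a sensor of strand breaks, at 1.37 (1.17 to 1.60). NBN, a subunit of the MRE11 complex, stood at 0.63 pooled but 1.17 line-adjusted. BRCA1 and BRCA2, named after their values were seen, had 36 against 12 counts and 57 against 7.

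G2/M genes outside the rule were higher too, although M was limited to 2 in S-phase barcodes. The 41 members with an entry summed to 1810 and 892 CPM, a line-adjusted ratio of 1.93 (1.80 to 2.08), with 1.69, 2.93 and 1.74 in the lines. Of 40 with counts 38 stood above 1 after line adjustment, and 7 of 13 with at least 100 counts were called higher, against 7.82% of all genes. In ERBB2+NNMT barcodes alone, 16 of 34 members with counts stood above 1 and 18 below. The low-cycling group was limited to M of at most 1, so this list is tied to the rule. KIF20B, a mitotic kinesin, stood at 3.71 (2.34 to 5.90) and TPX2, a spindle assembly factor, at 4.20 (2.59 to 6.79). CKS2 stood at 1.48 (1.28 to 1.71), while CDC25B, the phosphatase that activates CDK1, stood at 0.43 pooled and at 1.18 line-adjusted.

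Outside the lists, MAD2L1, UBE2T and SMC2 were among the genes with the widest line-adjusted ratios in 1 direction in all lines. A gene can pass the minimum of 100 counts through its S-phase level, which favours wide upward ratios among genes low in low-cycling barcodes. MAD2L1, a spindle checkpoint gene, had 94 and 26 counts, or 65.2 and 8.65 CPM, and a ratio of 9.17 (4.70 to 17.9), with 10.2, 11 and 8.17 in the lines. UBE2T, the ubiquitin-conjugating enzyme of the Fanconi anemia pathway, had 111 and 26 counts and a ratio of 6.81 (3.77 to 12.3), with 6.36, 8.52 and 6.22. SMC2, a condensin subunit, stood at 5.85. Of 4333 genes with at least 100 counts and 10 counts in each line, 822 were higher by point value in S-phase barcodes in all 3 lines and 559 were lower in all 3. A shared direction by point value in 3 lines can also arise from counting error, and its part in these counts was not tested.

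**Figure D3:**
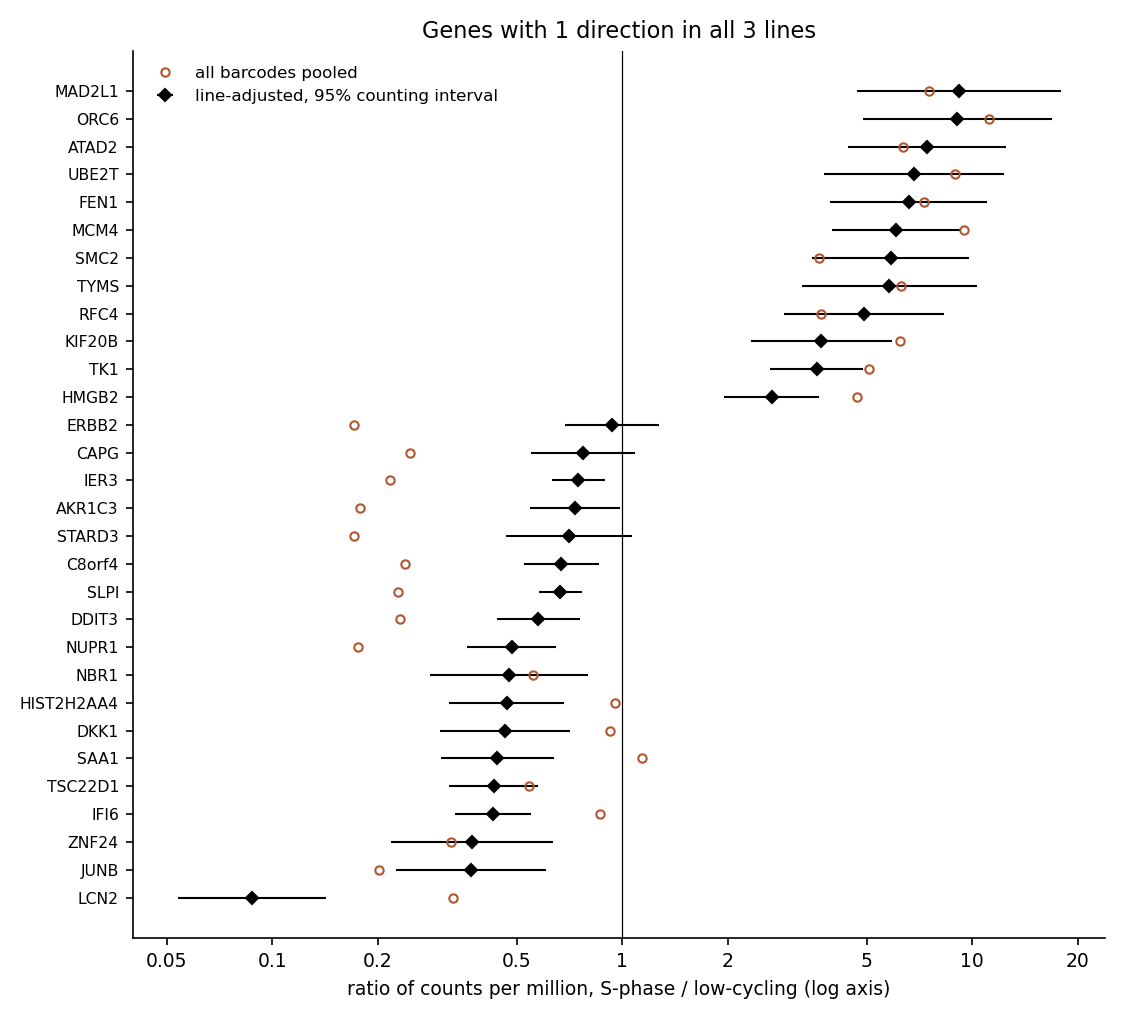
Ratio of CPM, S-phase over low-cycling (log axis), for genes with wide ratios in 1 direction by point value in all 3 lines. Diamonds are line-adjusted values with 95% counting intervals, and open circles are pooled values. LCN2, IFI6, DKK1, SAA1 and HIST2H2AA4 had 0 S-phase counts in ERBB2+NNMT barcodes, where a lower level was not detectable. MAD2L1 and ORC6 lie highest, at 9.17 and 9.07, LCN2 lowest, at 0.09, and AKR1C3 stands at 0.18 pooled and 0.73 line-adjusted.

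Low-cycling barcodes held somewhat more of the genes tied to arrest and G1, by a small margin. The 30 members summed to 1792 CPM in S-phase and 2165 CPM in low-cycling barcodes, a line-adjusted ratio of 0.88 (0.83 to 0.93), with 0.78, 1.04 and 0.85 in the lines. Of 29 members with a line-adjusted ratio 25 stood below 1 and 4 above, and 6 of 15 with at least 100 counts were called lower, against 4.85% of all genes. MXI1, a MYC antagonist, stood at 0.53 (0.28 to 0.997), and TXNIP, a thioredoxin inhibitor, at 0.66 (0.55 to 0.80), with 0.87, 0.19 and 0.68 in the lines. BTG2, an antiproliferative gene, had 44 and 84 counts, a pooled ratio of 1.09 and a line-adjusted ratio of 0.46 (0.31 to 0.69). In FOLR1+CLDN3 barcodes, which held 32 and 66 of these counts, it stood at 0.43. CCND1, cyclin D1, stood at 1.17 (1.07 to 1.28), above 1 though the list is named for G1. CDKN1A, the p21 inhibitor, was named for its role after its values were seen. It had 20 counts against 52 in FOLR1+CLDN3 barcodes, a ratio of 0.34, and the other lines had too few counts to read (1 against 7 and 2 against 1). GADD45A, a stress-induced gene also named after its values were seen, stood at 0.58 (0.46 to 0.74) and below 1 in each line, at 0.63, 0.31 and 0.80. Within FOLR1+CLDN3 barcodes 0 of 5 members with at least 100 counts were called lower, against 2.31% of all genes there, so this count says nothing about the list.

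The genes with the lowest ratios were chosen for a point value below 1 in each line, which in ERBB2+NNMT barcodes can rest on 0 S-phase counts. JUNB, an immediate early AP-1 factor, had 40 and 412 counts, or 27.8 and 137 CPM, and a line-adjusted ratio of 0.37 (0.23 to 0.61), with 0.28, 0.60 and 0.27 in the lines. NUPR1 and DDIT3, genes of the stress response, stood at 0.48 and 0.58, and SLPI, a secreted protease inhibitor, at 0.67 (0.58 to 0.77). LCN2, a secreted iron-carrier binding protein, had the lowest line-adjusted ratio of the genes named, 0.09 (0.05 to 0.14). In RARRES2 barcodes it stood at 73.9 against 722 CPM, and in FOLR1+CLDN3 barcodes at 0 against 23 counts, at least 8.63-fold lower when 3 counts are set for 0. IFI6, an interferon-induced gene, and TSC22D1 stood at 0.43 each, and DKK1, a secreted WNT inhibitor, at 0.46. SAA1, an acute-phase protein, stood at 0.44 line-adjusted but at 1.14 pooled. LCN2, IFI6, DKK1 and SAA1 had 0 counts in ERBB2+NNMT S-phase barcodes, where 3 counts stand for 42.6 CPM and their low-cycling levels lay below that, so a lower level was not detectable in that line at this depth. ZNF24, a zinc finger gene, stood at 0.37 (0.22 to 0.63), and NBR1, an autophagy receptor gene, at 0.47 (0.28 to 0.80). The joined entry of the PCDHGA1 cluster, a set of protocadherin genes, stood at 0.46 (0.30 to 0.73). The list of 14 stress and immediate early genes as a whole stood at 0.65 pooled and 1.12 line-adjusted (1.06 to 1.19). Its sum stood at 1.02 in ERBB2+NNMT, 1.54 (1.38 to 1.72) in RARRES2 and 1.00 in FOLR1+CLDN3 barcodes. After line adjustment 2 of its 11 members with at least 100 counts were called lower, against 4.85% of all genes. Of its 14 members 9 stood below 1 and 5 above after line adjustment, so the members' count and the sum point in different directions.

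Across FOLR1+CLDN3 barcodes the lists could be read over steps of S with the line held fixed. With M of at most 2, there were 190 barcodes with S of 0 to 1, 130 with 2 to 4, 57 with 5 to 7 and 77 with 8 or more, and 257 more had M of at least 3. The origin and fork list went from 748 to 1107, 1533 and 2098 CPM over the 4 steps and stood at 2161 in barcodes with M of at least 3. Nucleotide supply went from 1003 to 1254, 1394 and 1935 CPM, and stood at 2157 in the same barcodes. The G1/S list went from 448 to 615, 1036 and 1279 CPM, and then stood at 1679. The arrest list went from 1982 to 1821, 1879 and 1529 CPM, and then stood at 1592. The arrest values at S of 8 or more (1428 to 1636) and at high M (1536 to 1650) overlap. RARRES2 barcodes differed from this order. There the origin and fork list stood at 2198 CPM (1968 to 2448) in the 24 barcodes with S of 8 or more and 1700 CPM (1653 to 1749) at high M. Nucleotide supply stood at 3138 and 2776 CPM, and the arrest list at 2436 CPM (2194 to 2699), its highest of the 4 steps, against 2027 CPM.

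Single genes differed in where along these steps they were high. E2F1 stood at 0, 1.47, 11.5 and 36.2 CPM over the 4 steps and at 13.2 CPM with M of at least 3, so its highest level was at high S and low M. TK1 stood at 9.03, 25, 23.1 and 125 CPM, and at 131 CPM with high M. UBE2T stood at 11.3, 42.6, 43.3 and 74.3 CPM, and at 192 CPM with high M. The G2/M list stood at 1007, 1382, 1507 and 1823 CPM, against 6009 CPM with high M, which the rule for M selects. Chromatin assembly stood at 2199, 2758, 3362 and 4012 CPM, against 7054 CPM with high M. The median depth also differed, from 4236.5 counts at S of 0 to 1 to 6543 at S of 8 or more and 6616 with high M.

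**Figure D4:**
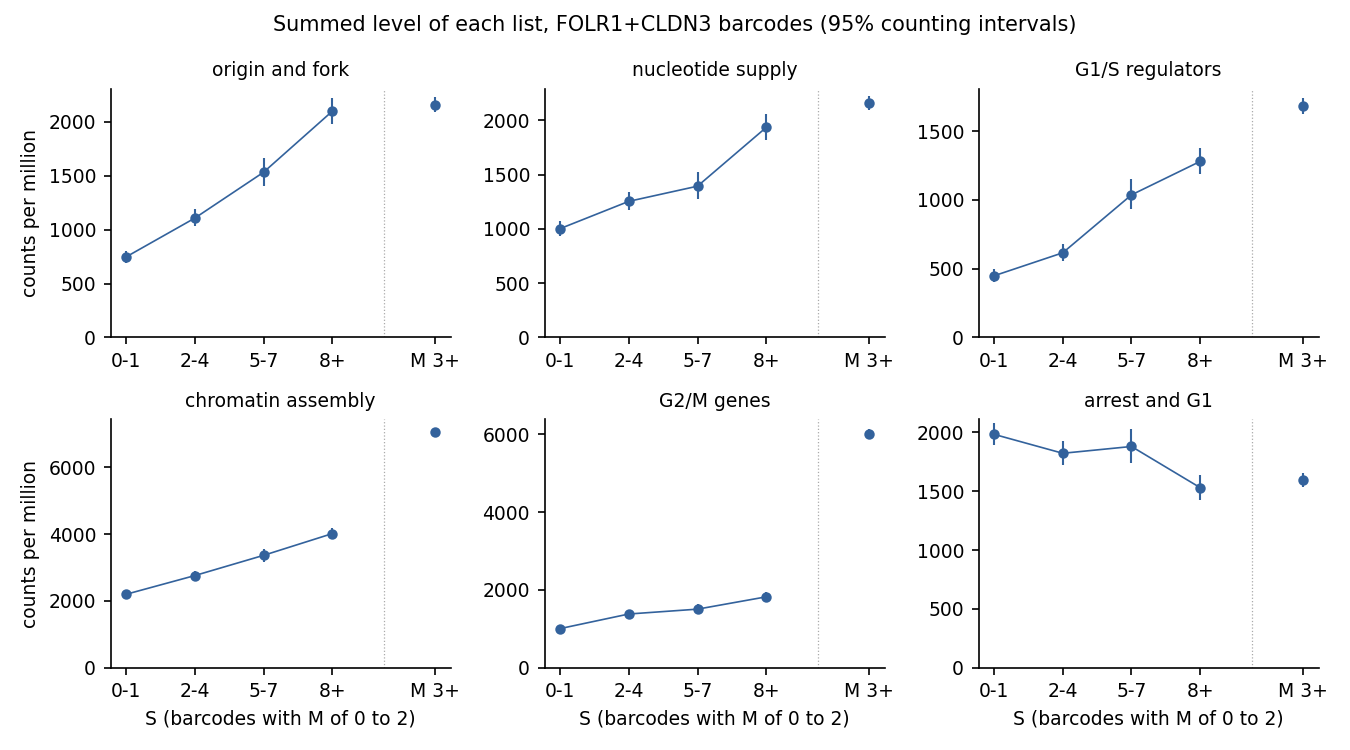
Summed CPM of 6 lists in FOLR1+CLDN3 barcodes over steps of S with M of at most 2 (joined points) and in barcodes with M of at least 3 (right of the dotted line), with 95% counting intervals. The origin and fork list goes from 748 to 2098 CPM over the 4 steps, and the arrest list from 1982 to 1529 CPM.

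Long reads also give the transcript of each gene, and DUT differed most. DUT encodes dUTPase, which breaks down dUTP so that uracil is not built into DNA, and it is made as a nuclear and a mitochondrial form from separate starts. The gene had 387 counts in S-phase and 252 in low-cycling barcodes, 269 and 83.8 CPM, and a line-adjusted ratio of 4.10 (3.22 to 5.21). The nuclear form, ENST00000455976, of 164 codons, starts in an exon at chr15:48332103-48332406 on the plus strand (GENCODE release 29, GRCh38). The mitochondrial form, ENST00000331200, of 252 codons, starts in an exon at chr15:48331423-48331795. Their coding sequences share everything from position 48332268 onward, and the join is shown because it is what tells the forms apart. Capitals mark bases of 1 form and lower case the shared bases. All 16 own bases of the nuclear form are shown, and for the mitochondrial form the last 60 of 280.
DUT nuclear form, coding bases 1 to 60: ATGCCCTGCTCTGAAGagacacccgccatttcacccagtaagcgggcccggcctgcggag
DUT mitochondrial form, coding bases 221 to 324: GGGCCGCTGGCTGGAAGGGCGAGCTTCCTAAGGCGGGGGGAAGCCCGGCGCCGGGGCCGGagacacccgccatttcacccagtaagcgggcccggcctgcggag

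The nuclear form took 83.9% (79.9% to 87.5%) of DUT counts in S-phase barcodes and 29.7% (24.2% to 35.8%) in low-cycling barcodes. The shares were 88.0% and 35.7% in FOLR1+CLDN3, 84.9% and 30.6% in RARRES2, and 62.4% and 27.4% in ERBB2+NNMT barcodes, where S-phase barcodes held 20 counts. The nuclear form stood at 225 CPM in S-phase and 24.8 CPM in low-cycling barcodes, a ratio of 9.07 (7.02 to 11.8), and at 13.5, 9.31 and 6.98 in the same order of lines. The mitochondrial form stood at 30.8 and 38.5 CPM, a ratio of 0.80 (0.55 to 1.13), with 0.84, 0.91 and 1.86 in the lines and intervals that hold 1. A further form that starts upstream, ENST00000558813, took 3.89% and 22.4% of the gene's counts, 10.4 and 18.8 CPM. The nuclear form was thus higher in S-phase barcodes of each line, which was not seen for the mitochondrial form.

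Over steps of S in all barcodes with M of at most 2, the nuclear share was 30.7% at S of 0 to 1, 54.3% at 2 to 4, 81.5% at 5 to 7 and 84.8% at 8 or more. It was 84.2% in barcodes with M of at least 3. The level of the nuclear form was 26.6, 60.1, 149 and 272 CPM over the same steps and 354 CPM with high M. The mitochondrial form stood at 39.0, 38.1, 28.2 and 32.4 CPM, and at 46.0 CPM with high M, with no such run. The mix of lines differs between these steps. Within FOLR1+CLDN3 barcodes the nuclear form stood at 15.1, 46.0, 99.5 and 213 CPM and at 275 CPM with high M. Within RARRES2 barcodes it stood at 60.8, 192, 368 and 544 CPM but at 402 CPM with high M. In ERBB2+NNMT barcodes the shares were 26.9%, 36.7%, 83.0% and 58.8%, the last pair from 3 and 17 counts. The sources used here do not give how the counting assigned reads that stop short of the forms' own bases, and its part in the shares was not tested.

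**Figure D5:**
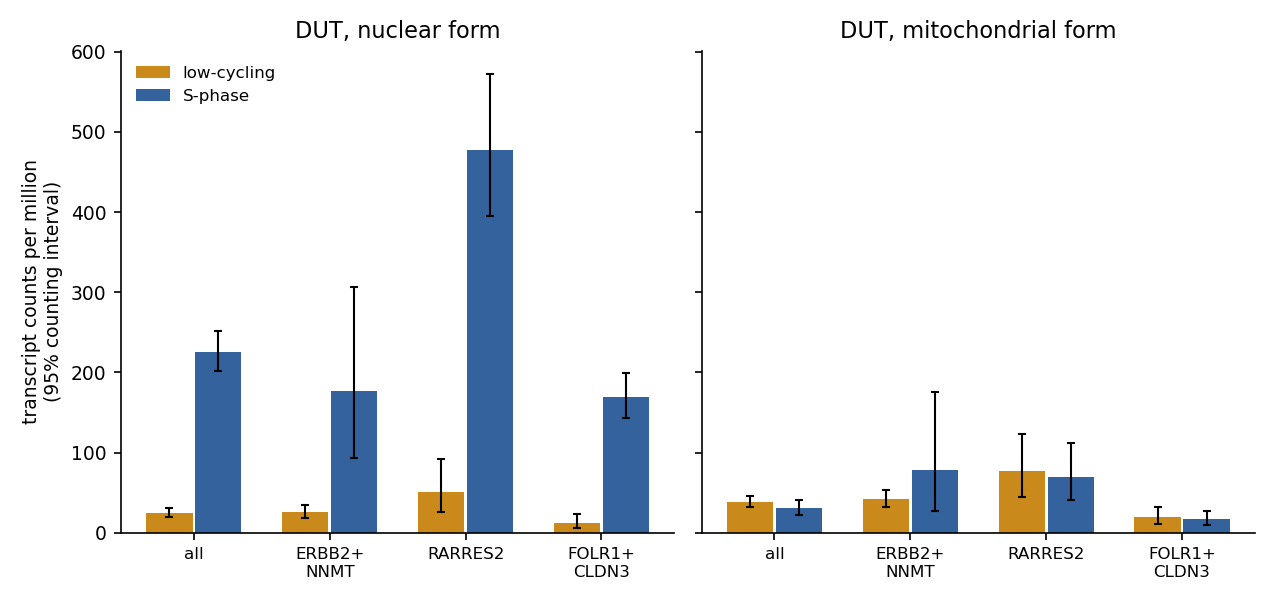
CPM of the nuclear (left) and the mitochondrial (right) DUT form in low-cycling and S-phase barcodes, pooled and within each line, with 95% counting intervals. The nuclear form stands at 24.8 and 225 CPM pooled, and the mitochondrial form at 38.5 and 30.8 CPM.

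Differences in transcript share of this size were rare. Of 2653 genes with at least 50 counts in both groups, 13 had a transcript whose share differed by more than 20 percentage points, and the median over genes of the widest difference was 2.70 points. Within FOLR1+CLDN3 barcodes 3 of 1361 genes passed 20 points, and DUT is not among these genes because its low-cycling barcodes held 28 counts there. The genes named next are those with the widest differences at a minimum of 100 counts in both groups, and at 50 counts other genes lie among them. ISOC2, an isochorismatase domain gene, had 50% of its counts in ENST00000425675 in S-phase barcodes and 75.7% in low-cycling barcodes. The gap was clear of counting error in RARRES2 barcodes, at 50.6% (36.1% to 63.9%, 54 counts) against 85.1% (73.5% to 92.4%, 65 counts). The intervals overlap in ERBB2+NNMT barcodes, at 54.5% (11 counts) against 74.8%, and in FOLR1+CLDN3 barcodes, at 43.7% against 54.4%. SNHG8, a noncoding host of a small nucleolar RNA, had 61.3% and 81.9% in ENST00000602414. Within lines the intervals overlap, at 76.7% (15 counts) against 90.2% in ERBB2+NNMT, 62.6% (17 counts) against 89.7% in RARRES2, and 56.5% (49.7% to 62.9%) against 64.3% (58.0% to 70.7%) in FOLR1+CLDN3 barcodes. The share of ENST00000356708 of ATP5C1, an ATP synthase subunit gene, differed pooled, at 81.0% and 53.4%, but not within FOLR1+CLDN3 barcodes, at 89.2% and 90.2%. It was 72.9% (48 counts) and 59.5% (37 counts) in RARRES2 barcodes, and in the opposite order in ERBB2+NNMT barcodes, at 24.7% (27 counts) and 35.4%. The intervals overlap in both of these lines. POLR1D, an RNA polymerase subunit gene, had 81.2% and 58.1% in ENST00000302979 pooled. The order was the same in FOLR1+CLDN3 barcodes, at 84.9% and 76.8%, and in ERBB2+NNMT barcodes, at 71.4% (7 counts) and 36.7%, and opposite in RARRES2 barcodes, at 52.6% (38 counts) and 78.8% (33 counts). The intervals overlap in each line.

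At an equal 2000 counts per barcode the median number of genes was 998 in S-phase and 1067.5 in low-cycling barcodes, but 962 and 899 within FOLR1+CLDN3, 1071 and 1003.5 within RARRES2, and 1116 and 1124 within ERBB2+NNMT barcodes. Mitochondrially encoded RNA made up 5.79% and 4.27% of counts pooled, but 7.11% and 7.04% within FOLR1+CLDN3, 2.73% and 2.96% within ERBB2+NNMT, and 2.84% and 3.92% within RARRES2 barcodes, where the gap between groups was widest. Ribosomal protein genes made up 22.8% and 17.2% pooled, 27.0% and 28.1% within FOLR1+CLDN3, 12.3% and 12.2% within ERBB2+NNMT, and 15.4% and 16.9% within RARRES2 barcodes. Epithelial markers (KRT7, KRT8, KRT18, KRT19 and EPCAM) also moved with the groups inside lines. Their summed level was 3294 CPM in S-phase and 1580 CPM in low-cycling barcodes of ERBB2+NNMT (ratio 2.09), 10977 and 6381 CPM in RARRES2 (1.72), and 3329 and 3916 CPM in FOLR1+CLDN3 (0.85). In the 10 ERBB2+NNMT S-phase barcodes KRT8 stood at 3.09 and KRT19 at 2.65 times the low-cycling level. There KRT7 stood at 0.67 (4 against 140 counts), KRT18 at 1.17 and EPCAM at 1.27, each with an interval that holds 1. The part of the epithelial markers in the list ratios of these lines was not tested.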

How the data were processed

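The authors deposited estimated counts per transcript and barcode for the PromethION library, with fractions where a read is shared between transcripts. Gene sums were whole within 1e-06, and 13052893 counts were read. GRCh38 and Cell Ranger 6.0.1 are named per the submitters' processing notes. For the aligner, the annotation release and any collapsing of molecular identifiers, nothing is stated in the sources used here.

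Counts were summed by gene name over barcodes of a group and divided by the group's total. Genes sharing an entry (712 joined names) were left out of list sums, apart from RRM2. Intervals were exact binomial or Poisson, or Mantel-Haenszel over 3 lines, at 95%, and cover counting error only. Cells are not replicates, so no test was run. The ratio script was tested on simulated data.

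The members, lists and limits were chosen with earlier results of these data known. Genes named were the 4 highest and 2 lowest of each of 7 lists by CPM ratio (10 CPM added, at least 100 counts), the 10 highest and 10 lowest of all genes with the same direction in 3 lines, the 5 widest transcript differences at 100 counts in both groups, and the rule and line genes. Not all are printed, and 1 gene is not reported here. Line adjustment, its extremes and the histone group were added after the data were seen. RefSeq promoters were matched by symbol. Alternatives were other totals, filters, limits, depth windows, lines and doublet removal. Tools were Python 3.11.15, numpy 2.4.6, scipy 1.17.1, pandas 2.3.3, scanpy 1.11.5 and matplotlib 3.10.9.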

Additional observations from a re-analysis of the deposited data

How the results depend on the processing

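No paired analysis was possible because there is 1 library and no replicate number. Within-line values and line adjustment were added after the data were seen, and the cause of each shift below was not tested. Against 531 genes higher and 1147 lower, a minimum of 50 counts gave 877 and 1822, a minimum of 1 count in each group 2641 and 3405, and a 2-fold limit 176 and 421. The number lower was 378 by the geometric mean of 3 lines and 233 line-adjusted. The split was 724 higher and 822 lower without mitochondrial and ribosomal genes in the total, and 737 and 816 centred on the median ratio. In the order origin and fork, nucleotide supply, G1/S, chromatin, repair, G2/M and arrest, the summed list ratios were 3.77, 2.14, 3.54, 1.89, 2.03, 2.23 and 0.91 without those genes and 3.78, 2.15, 3.56, 1.90, 2.04, 2.24 and 0.92 centred. With the rule per 10000 counts the first 6 were 3.97, 2.25, 3.8, 1.98, 2.13 and 2.18, and line-adjusted 3.33, 2.12, 3.42, 2.22, 2.35 and 2.10. In barcodes of 4000 to 8000 counts the fork, nucleotide, G1/S, chromatin and arrest ratios were 3.82, 2.08, 3.53, 1.80 and 0.76, and the arrest ratio line-adjusted 0.78. S-phase at S of 8 or more left 126 barcodes and gave 3.84, 2.15, 3.53, 1.87 and 2.05 for the first 5 lists. Low-cycling at S and M of 0 left 328 barcodes and gave 4.0 for fork, 3.56 for G1/S, 1.83 for chromatin and 2.16 for G2/M genes. The geometric mean of 3 lines gave 2.98 for G1/S, 2.01 for chromatin, 2.38 for repair and 0.88 for arrest, and line adjustment gave 2.87 for fork, 2.91 for G1/S, 1.88 for chromatin, 2.01 for repair and 0.88 for arrest. None of these 7 lists changed side of 1 under these alternatives, although arrest stood at 1.04 within RARRES2 barcodes. On line adjustment the stress list went from 0.65 to 1.12, mitochondrially encoded genes from 1.36 to 0.97 and ribosomal protein genes from 1.33 to 0.96. NBN turned from 0.63 to 1.02 by the geometric mean and 1.17 line-adjusted, and CDC25B from 0.43 to 1.15 and 1.18. At 4000 to 8000 counts S-phase barcodes made up 13.7% of RARRES2 and 23.9% of FOLR1+CLDN3 barcodes. Genes with a transcript share over 20 points apart were 5 at 100 counts, 3 in FOLR1+CLDN3 and 4 in RARRES2 barcodes. Without thinning the genes per barcode were 2157 in S-phase and 1815 in low-cycling barcodes. The DUT nuclear share differed by 54.3 points, by 52.3 within FOLR1+CLDN3, 54.3 within RARRES2 and 35.0 within ERBB2+NNMT barcodes. Depth limits the ERBB2+NNMT values most, since its S-phase barcodes held 70427 counts, so that 3 counts there stand for 42.6 CPM.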
